A study of Mus musculus with 20 samples.

Results

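The 10 genes described here encode the enzymes that make serine from a glycolytic intermediate and those that pass its carbon through folate, in the cytosol and in mitochondria. They were chosen by name as Phgdh, Psat1, Psph, Shmt1, Shmt2, Mthfd1, Mthfd2, Mthfd1l, Aldh1l1 and Aldh1l2, out of the 54532 genes of the deposited count table, and their positions are given on mm10. All 10 were among the 15354 genes that passed the filter on low counts and were tested.

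The counts came from poly(A)-enriched RNA of 10 tumors and 10 normal kidneys of C57BL/6 mice of the Cre-less AAV model. There, an adeno-associated virus with sgRNAs against Vhl, Pbrm1, Keap1 and Tsc1, and without Cre, was injected into the kidney of adult mice that carried Pax8-Cre and a Cre-dependent Cas9 at Rosa26. Normal kidney libraries were made from kidney tissue of the same mice, so they shared the Cas9 and Cre alleles with the tumors. The mice had been injected, but whether that tissue was of the injected kidney is not stated here. No group received a drug, the age at collection is not given in the sources used here, and Cas9 was limited to cells with a history of Pax8 expression, a marker of the kidney tubule lineage.

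In serine synthesis, Phgdh oxidizes 3-phosphoglycerate, Psat1 transfers an amino group from glutamate, and Psph removes the phosphate to release serine. Serine hydroxymethyltransferase then splits serine into glycine and a carbon unit on tetrahydrofolate, by Shmt1 in the cytosol and by Shmt2 in mitochondria. The folate pathway runs in parallel in both compartments, and formate made in mitochondria by Mthfd2 and Mthfd1l is used in the cytosol by Mthfd1, while Aldh1l1 (cytosolic) and Aldh1l2 (mitochondrial) oxidize the formyl unit to carbon dioxide. The pathway is known for feeding purine, thymidylate and methionine synthesis, and the proximal tubule of the kidney is a known site of serine production.

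Promoter windows of 6 of the genes, from 250 bases before to 50 bases after the RefSeq transcript start (GRCm38.p6), are given below, since the members moved in opposite directions. Phgdh, Psat1 (the second of its windows), Psph and Mthfd1l are shown because they hold a motif searched for, and Shmt2 and Aldh1l1 because they were the members whose tumors and normal kidneys did not overlap. Capitals mark matches of TGACNNNGC, the element of Nrf2, or of ACGTG, a form of the core of the hypoxia response element. Other forms of this core were not searched for. Each line reads 5′ to 3′ on the strand of the gene.

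Phgdh (chr3:98339920-98340219, minus strand): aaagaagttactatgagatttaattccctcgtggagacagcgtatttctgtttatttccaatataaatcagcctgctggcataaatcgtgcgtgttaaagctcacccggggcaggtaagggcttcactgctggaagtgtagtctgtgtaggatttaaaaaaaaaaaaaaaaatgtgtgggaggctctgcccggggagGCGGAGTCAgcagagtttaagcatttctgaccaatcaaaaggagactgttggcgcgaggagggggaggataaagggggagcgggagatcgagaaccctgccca

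Psat1 (chr19:15924573-15924872, minus strand): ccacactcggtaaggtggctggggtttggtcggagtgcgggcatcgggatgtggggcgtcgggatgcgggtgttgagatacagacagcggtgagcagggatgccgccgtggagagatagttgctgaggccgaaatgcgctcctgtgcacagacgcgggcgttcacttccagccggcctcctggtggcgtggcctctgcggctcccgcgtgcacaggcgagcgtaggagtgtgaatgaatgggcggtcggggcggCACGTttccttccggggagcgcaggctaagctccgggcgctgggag

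Psph (chr5:129787204-129787503, minus strand): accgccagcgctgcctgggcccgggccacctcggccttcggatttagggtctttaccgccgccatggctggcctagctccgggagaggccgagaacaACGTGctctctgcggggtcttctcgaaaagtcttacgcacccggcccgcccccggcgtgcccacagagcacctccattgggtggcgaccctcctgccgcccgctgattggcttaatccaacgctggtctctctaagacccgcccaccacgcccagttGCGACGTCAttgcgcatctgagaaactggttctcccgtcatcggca

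Mthfd1l (chr10:3972825-3973124, plus strand): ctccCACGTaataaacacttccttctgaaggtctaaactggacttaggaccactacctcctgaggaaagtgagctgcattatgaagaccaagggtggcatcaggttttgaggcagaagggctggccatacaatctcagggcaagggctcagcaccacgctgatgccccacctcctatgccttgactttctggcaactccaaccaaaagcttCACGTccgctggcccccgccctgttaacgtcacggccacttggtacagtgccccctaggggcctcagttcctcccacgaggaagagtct

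Shmt2 (chr10:127522395-127522694, minus strand): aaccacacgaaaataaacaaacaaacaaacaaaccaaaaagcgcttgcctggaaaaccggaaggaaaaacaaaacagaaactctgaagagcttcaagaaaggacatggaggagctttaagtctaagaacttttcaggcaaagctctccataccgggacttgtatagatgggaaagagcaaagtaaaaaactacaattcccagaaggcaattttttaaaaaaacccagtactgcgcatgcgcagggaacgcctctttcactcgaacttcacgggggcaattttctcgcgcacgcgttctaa

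Aldh1l1 (chr6:90550543-90550842, plus strand): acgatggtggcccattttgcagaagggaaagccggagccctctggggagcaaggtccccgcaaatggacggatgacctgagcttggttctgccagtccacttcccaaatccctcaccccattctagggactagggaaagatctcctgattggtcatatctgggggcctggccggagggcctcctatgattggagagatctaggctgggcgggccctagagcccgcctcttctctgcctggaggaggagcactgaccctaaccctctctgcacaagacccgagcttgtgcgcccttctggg

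Windows were found for 9 of the 10 members, with 2 windows for Psat1, and none was found for Aldh1l2. The windows of Psat1, Shmt1, Mthfd2 and Aldh1l1 lie wholly inside the listed span of the gene, so the 5′ end of that span was not searched. TGACNNNGC was matched in 2 members, in Phgdh as GCGGAGTCA at position -53 and in Psph as GCGACGTCA at position 4, counted from 0 at the listed start. Of all 32851 promoter windows, 12.4% held this motif on either strand. ACGTG was matched in Psph, in Mthfd1l (2 matches) and in the second of the Psat1 windows, against 19.6% of all windows. TGATGNAA, the element of ATF4 (3.97% of all windows), and CACGTG, the E-box (7.15%), which contains ACGTG, were matched in no window of a member. A match describes the letters of these windows and not a binding site. Of the genes with TGACNNNGC, Phgdh fell and Psph rose in tumors. Of those with ACGTG, Psph and Mthfd1l rose and Psat1 did not pass the test. Shmt2 and Mthfd2 rose without a match, and the part of a match in these changes was not tested.

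Total counts lay between 14737516 and 26679704 per library, and no pair of libraries of a group agreed within sampling noise. Of all 15354 genes tested, 23.6% were higher and 23.8% lower in tumors by edgeR's quasi-likelihood test, at a Benjamini-Hochberg adjusted p under 0.05 over all genes. With library totals in place of TMM factors the split of calls was 2850 higher to 4554 lower in place of 3631 to 3661, with upper quartile scaling it was 3000 to 4650, and all called members kept their direction. Of the genes targeted by the sgRNAs, Vhl fell by 0.49 on the log2 scale (adjusted p = 0.00179) and Tsc1 fell by 0.61 (adjusted p = 0.00871), Keap1 rose by 0.83 (adjusted p = 1.3e-07), and Pbrm1 did not pass (log2 fold change -0.28, adjusted p = 0.23). The tissue label held for normal kidneys, in which 6 markers of tubule segments beyond the proximal tubule summed to between 4078 and 10235 CPM (counts scaled by the normalized library size). In tumors these markers summed to between 0.612 and 8.80 CPM, and the 10 proximal tubule markers to between 1147 and 10132 CPM. Normal kidney 9 had a TMM factor of 0.749, and tumor 7 stood apart by a summed level of fibroblast markers of 7905 CPM, against at most 587 CPM in the other tumors.

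Among the members, the 4 mitochondrial folate enzymes were higher in tumors and the 3 cytosolic ones lower, and in these bulk samples fewer cells of a type and less RNA per cell cannot be told apart. Of the 10 members, 5 were higher in tumors (Shmt2, Mthfd2, Mthfd1l, Aldh1l2 and Psph), 4 were lower (Shmt1, Mthfd1, Aldh1l1 and Phgdh) and Psat1 did not pass the test. The pattern did not extend to every mitochondrial folate enzyme, since Mthfd2l, which is no member, was lower in tumors (log2 fold change -0.78, adjusted p = 0.00021). The median log2 fold change of the members was 0.25, against -0.02 over all genes tested. Every tumor lay above every normal kidney in 1 member, Shmt2, and below in 1 member, Aldh1l1, against 5.87% and 4.74% of all genes tested.

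**Figure D1:**
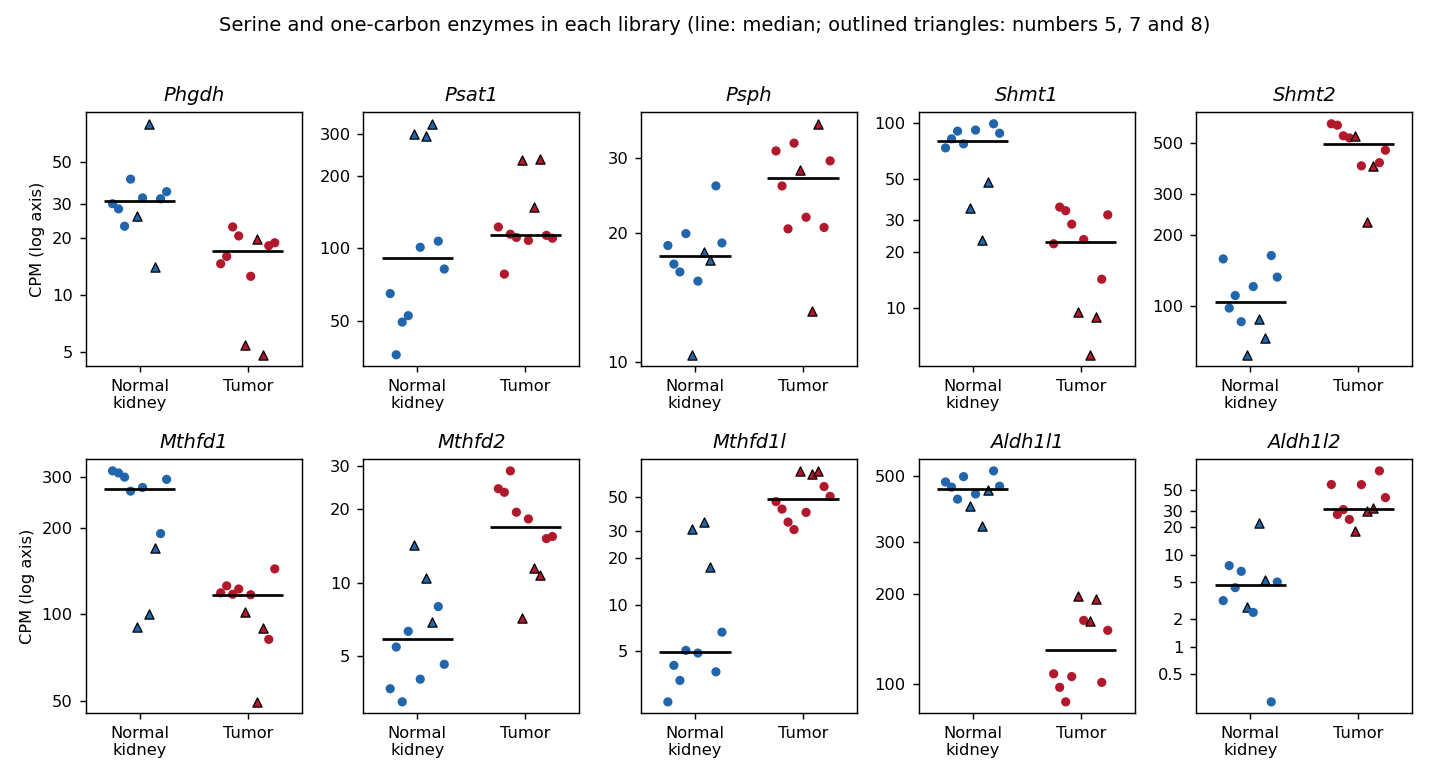
CPM of the 10 enzymes in each library on log axes, with normal kidneys in blue, tumors in red, the median of each group of 10 as a line, and libraries numbered 5, 7 and 8 as outlined triangles. Shmt2 and Aldh1l1 show no overlap between groups, and the 3 triangles of normal kidneys lie at the top for Psat1 and Mthfd1l and at the bottom for Shmt1.

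Of the serine synthesis enzymes, Phgdh (chr3:98313170-98339990, minus strand), which commits the glycolytic intermediate to the pathway, was lower in tumors. It was measured at 4.81, 17.0 and 22.8 CPM (lowest, median and highest) in tumors and at 14.1, 31.1 and 79.7 CPM in normal kidneys. The lowest tumors were 8 and 5, at 4.81 and 5.43 CPM, and the ranges overlapped, with 3 tumors below all normal kidneys. Its log2 fold change was -1.16 (SE 0.291, adjusted p = 0.00253), a 2.23-fold lower level. In each of the 10 numbers that tumors and normal kidneys shared, the tumor was the lower of the 2 libraries. Normal kidney 7 was the highest, and without it the log2 fold change was -0.92. The 2 Phgdh pseudogenes in the table held 3 and 2 counts over all 20 libraries, against 10294 for Phgdh.

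Psat1 (chr19:15904678-15947337, minus strand), the aminotransferase of the second step, was at a mean of 138 CPM in tumors, close to that of 142 CPM in normal kidneys, with a wider spread in the latter. Tumors held 78.1, 114 and 235 CPM (lowest, median and highest) and normal kidneys 36.0, 91.5 and 330 CPM. Normal kidneys 5, 7 and 8 held 300, 294 and 330 CPM, and the other 7 between 36.0 and 107 CPM. Its log2 fold change was -0.04 (SE 0.382, adjusted p = 0.938), with a 95% interval from -0.79 to 0.71 that included both a rise and a fall. The value rested on those 3 normal kidneys. Without all 3, Psat1 was called higher in tumors with a log2 fold change of 0.97 (adjusted p = 0.00413). This alternative was chosen after the values of the members, and then of Lcn2, were seen. These kidneys were the 3 highest in Psat1, so leaving them out could only raise the value. Limma-voom with quality weights, which gives less weight to libraries far from their group, called it higher, at 0.85 (adjusted p = 0.00666). Without these weights limma-voom gave 0.33 (adjusted p = 0.499). The weights of single libraries are not given here, so the weighted fit cannot be counted as separate from leaving those 3 out.

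Psph (chr5:129765558-129787449, minus strand), the phosphatase that releases serine, was higher in tumors by a smaller fold than the other called members. It was at 13.1, 27.0 and 36.1 CPM (lowest, median and highest) in tumors and at 10.4, 17.7 and 25.8 CPM in normal kidneys. The groups overlapped, 5 tumors lay above all normal kidneys, and tumor 7 was the lowest tumor. The log2 fold change was 0.54 (SE 0.165, adjusted p = 0.00985), or 1.46-fold. Psph shares 452 of its 4329 exonic bases with Cct6a on the opposite strand, which was at 115 to 158 CPM in tumors, compared with 122 to 162 CPM in normal kidneys, and whether the counting used strand is not given in the sources used here.

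The ratio of Psat1 to Phgdh within a library was higher in tumors. On the log2 scale of counts it was 3.24 ± 1.23 (SD, n = 10) in tumors, against 1.75 ± 1.34 (SD, n = 10) in normal kidneys, a difference of 1.49 (two-sided permutation test over libraries, adjusted p = 0.0184 over 6 ratios). The tumor was the higher library in all 10 numbers, and the ranges of the groups overlapped.

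**Figure D2:**
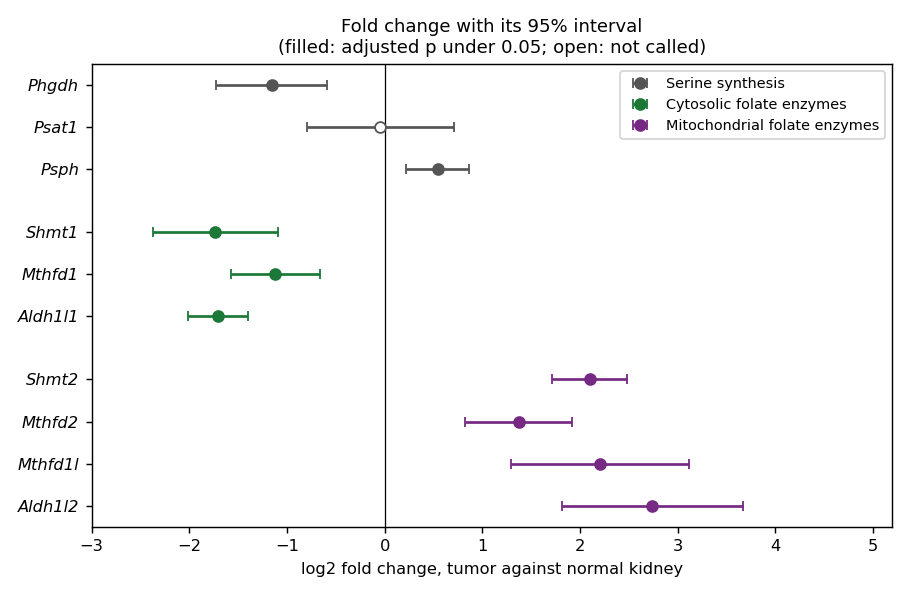
Log2 fold change of each enzyme in tumors against normal kidneys, with its 95% interval, grouped as serine synthesis, cytosolic folate enzymes and mitochondrial folate enzymes. The 3 cytosolic enzymes lie between -1.73 and -1.12 and the 4 mitochondrial enzymes between 1.37 and 2.74, and only the interval of Psat1 (open symbol) includes 0.

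Shmt2 (chr10:127517123-127522444, minus strand), which takes the carbon unit from serine in mitochondria, had the highest level of the members in tumors and rose. Tumors held 229, 493 and 602 CPM (lowest, median and highest) and normal kidneys 61.6, 104 and 164 CPM. All 10 tumors lay above all 10 normal kidneys, and the lowest tumor was tumor 7, with the next at 396 CPM. The difference came to a log2 fold change of 2.10 (SE 0.196, adjusted p = 1.9e-08), a 4.29-fold higher level. Shmt2 shares 32 of its 3109 exonic bases with Ndufa4l2 on the opposite strand, a gene at 35.0 to 401 CPM in tumors, compared with 1.19 to 5.09 CPM in normal kidneys, and the part of these bases in the result was not tested.

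Shmt1 (chr11:60788104-60811718, minus strand), the cytosolic counterpart of Shmt2, fell. It was at 5.59, 22.9 and 35.2 CPM (lowest, median and highest) in tumors and at 23.4, 79.8 and 99.2 CPM in normal kidneys. Tumors 7, 8 and 5 were the lowest tumors, at 5.59, 8.91 and 9.52 CPM, and the only normal kidneys within the range of tumors were 7 (23.4 CPM) and 5 (35.0 CPM). The difference came to a log2 fold change of -1.73 (SE 0.326, adjusted p = 0.000167), a 3.33-fold lower level, and the tumor was the lower library in all 10 numbers. Shmt1 shares 184 of its 3883 exonic bases with Smcr8 on the opposite strand, which was at 42.3 to 91.2 CPM in tumors, compared with 21.0 to 62.3 CPM in normal kidneys.

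As Shmt2 rose and Shmt1 fell, the ratio of Shmt2 to Shmt1 within a library had to move further than either gene. Its log2 value was 4.64 ± 0.704 (SD, n = 10) in tumors, against 0.68 ± 0.518 (SD, n = 10) in normal kidneys, a difference of 3.96 without overlap (two-sided permutation test, adjusted p = 3e-05 over 6 ratios, from the smallest p that the 100000 resamples can give). Per kilobase of exon, Shmt2 was at a median of 28.3 times the level of Shmt1 in tumors (range 18.1 to 70.0) and 1.88 times in normal kidneys (range 1.38 to 4.65).

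Mthfd2 (chr6:83305691-83325908, minus strand), the mitochondrial dehydrogenase and cyclohydrolase of the next step, rose from a low level. Tumors held 7.14, 16.8 and 28.7 CPM (lowest, median and highest) and normal kidneys 3.25, 5.89 and 14.2 CPM. In tumors the lowest were 5, 8 and 7 (7.14, 10.8 and 11.5 CPM), and in normal kidneys the highest were 5 and 7 (14.2 and 10.5 CPM). The log2 fold change was 1.37 (SE 0.280, adjusted p = 0.00038), and 7 tumors lay above all normal kidneys. Under limma-voom weighted by library quality it was 2.03 (adjusted p = 3.54e-08). Number 5 was the only one of the 10 in which the tumor held less Mthfd2 than the normal kidney. Mthfd2l, a second mitochondrial enzyme of this step, moved the other way. It was at 8.77 ± 1.05 CPM (SD, n = 10) in tumors, versus 15.1 ± 5.13 CPM (SD, n = 10) in normal kidneys (SE of the log2 fold change 0.151), and the groups did not overlap. The log2 ratio of Mthfd2 to Mthfd2l was 0.89 ± 0.687 (SD, n = 10) in tumors, against -1.27 ± 0.616 (SD, n = 10) in normal kidneys, a difference of 2.15 (two-sided permutation test, adjusted p = 0.0001).

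Mthfd1l (chr10:3973118-4167081, plus strand), which releases formate in mitochondria, rose more than Mthfd2 and was the most variable member among normal kidneys beside Aldh1l2. It was at 30.8, 48.9 and 74.5 CPM (lowest, median and highest) in tumors and at 2.32, 4.93 and 34.8 CPM in normal kidneys. Normal kidneys 7, 5 and 8 held 34.8, 31.0 and 17.7 CPM and the other 7 at most 6.61 CPM, and tumors 5, 8 and 7 were the highest tumors at 70.9 to 74.5 CPM. The fitted log2 fold change was 2.20 (SE 0.464, adjusted p = 0.000529), and the tumor was the higher library in all 10 numbers. It rose to 2.79 (adjusted p = 2.3e-05) with the replicate block and to 3.25 (adjusted p = 1.7e-10) under limma-voom weighted by library quality. Without normal kidneys 5, 7 and 8 it was 3.63 (adjusted p = 1.66e-09), but these were the 3 normal kidneys with the most Mthfd1l and were left out after seeing the data, so leaving them out could only raise it.

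Mthfd1 (chr12:76255298-76319803, plus strand), the cytosolic enzyme that carries the activities of these steps in 1 protein, fell. It was at 49.5, 117 and 144 CPM (lowest, median and highest) in tumors and at 90.0, 272 and 316 CPM in normal kidneys. Tumor 7 was the lowest tumor, and normal kidneys 5 and 7, at 90.0 and 100.2 CPM, lay within the range of tumors. The fitted log2 fold change was -1.12 (SE 0.231, adjusted p = 0.000428), a 2.17-fold lower level. The log2 ratio of Mthfd1l to Mthfd1 was -1.04 ± 0.814 (SD, n = 10) in tumors, against -4.89 ± 2.03 (SD, n = 10) in normal kidneys, a difference of 3.85 (two-sided permutation test, adjusted p = 0.000288). The ranges overlapped only through normal kidneys 5 and 7. The log2 ratio of Mthfd2 to Mthfd1 differed by 2.46 in the same direction (adjusted p = 0.000255), from -5.13 ± 1.33 (SD, n = 10) in normal kidneys to -2.67 ± 0.555 (SD, n = 10) in tumors.

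Aldh1l2 (chr10:83487450-83534140, minus strand), the mitochondrial formyltetrahydrofolate dehydrogenase, had the largest log2 fold change of the members. Tumors held 18.2, 31.7 and 81.5 CPM (lowest, median and highest) and normal kidneys 0.251, 4.72 and 22.3 CPM. The lowest value was that of normal kidney 9, with 4 counts, and the highest normal kidney was 7, the only one within the range of tumors. The log2 fold change was 2.74 (SE 0.471, adjusted p = 6.24e-05), or 6.69-fold, and 9 tumors lay above all normal kidneys. Aldh1l2 shares 1056 of its 7503 exonic bases with D10Wsu102e on the opposite strand, which was at 27.7 to 42.5 CPM in tumors, compared with 22.2 to 47.6 CPM in normal kidneys.

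Aldh1l1 (chr6:90486427-90600203, plus strand), the cytosolic dehydrogenase, was the member with the least variation among normal kidneys. It was at 87.0, 130 and 197 CPM (lowest, median and highest) in tumors and at 341, 454 and 521 CPM in normal kidneys. All 10 tumors lay below all 10 normal kidneys, and the highest tumors were 5 and 8 (197 and 192 CPM). Its log2 fold change was -1.71 (SE 0.156, adjusted p = 1.46e-08), a 3.26-fold lower level. The log2 ratio of Aldh1l2 to Aldh1l1 was -1.85 ± 0.882 (SD, n = 10) in tumors, against -6.83 ± 1.73 (SD, n = 10) in normal kidneys, a difference of 4.98 without overlap (two-sided permutation test, adjusted p = 3e-05).

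**Figure D3:**
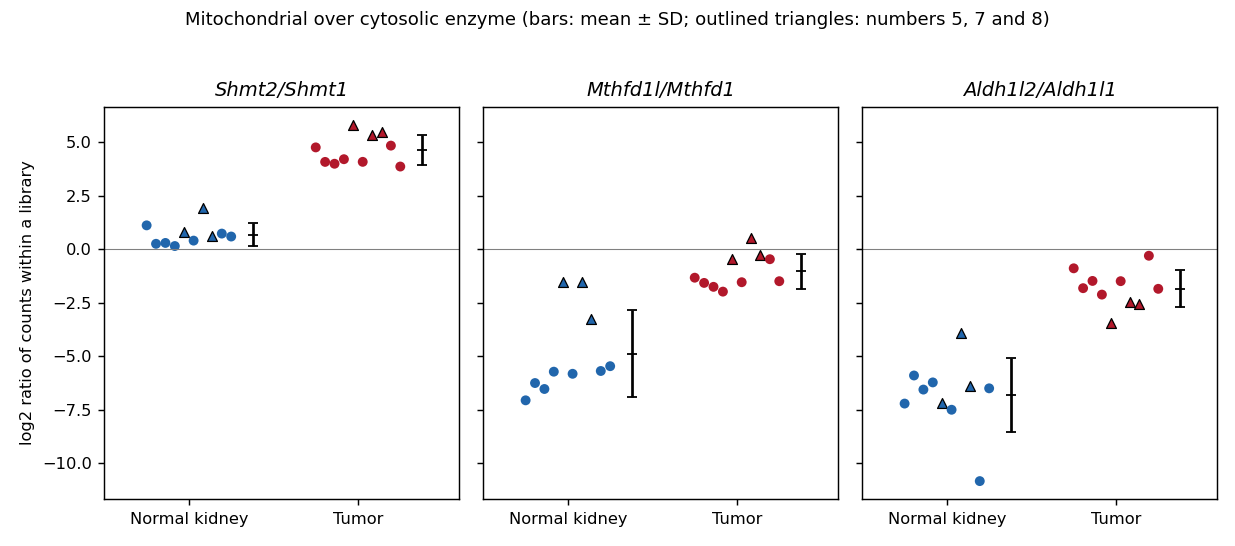
Log2 ratio of counts of the mitochondrial to the cytosolic enzyme in each library, for Shmt2/Shmt1, Mthfd1l/Mthfd1 and Aldh1l2/Aldh1l1, with mean ± SD of each group of 10 beside the points and libraries numbered 5, 7 and 8 as triangles. The tumors lie 3.96, 3.85 and 4.98 above the normal kidneys on average, and the groups overlap only for Mthfd1l/Mthfd1, through normal kidneys 5 and 7.

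Levels were compared between members as CPM per kilobase of exon. The summed level of the 10 members was 277 ± 39.2 (SD, n = 10) in tumors, against 261 ± 16.5 (SD, n = 10) in normal kidneys, so the sum differed by less than the spread between tumors while its make-up did not stay the same. The 4 mitochondrial enzymes made up 61.9% ± 6.52 (SD, n = 10) of it in tumors but 15.4% ± 2.74 (SD, n = 10) in normal kidneys, and the lowest tumor (50.6%, tumor 7) lay above the highest normal kidney (19.7%, normal kidney 9). Most of this mitochondrial share was Shmt2, which alone made up 53.7% of the sum in tumors and 13.3% in normal kidneys on average. The 3 cytosolic enzymes made up 21.8% ± 3.39 (SD, n = 10) in tumors, against 64.7% ± 11.7 (SD, n = 10) in normal kidneys. The 3 serine synthesis enzymes made up 16.3% ± 4.49 and 19.9% ± 12.1 (SD, n = 10 each), with the highest share in normal kidney 7 (41.9%).

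In tumors Shmt2 led the order of levels per kilobase, at 151 ± 36.6 (SD, n = 10) or 53.7% of the sum, above the next member in 10 of 10 libraries. Psat1, Aldh1l1 and Mthfd1 followed at 32.3 ± 12.7, 30.3 ± 9.17 and 24.0 ± 6.08 CPM per kilobase, and each of these neighbours overlapped with the next. Mthfd1l was at 11.8 ± 3.70. Psph, Phgdh, Aldh1l2, Shmt1 and Mthfd2 lay between means of 4.99 and 6.15, and their order did not hold from tumor to tumor. In normal kidneys Aldh1l1 led at 98.7 ± 11.4 (37.8% of the sum), above Mthfd1 at 52.2 ± 19.6 in 10 of 10 libraries. Shmt2 (35.1 ± 11.2), Psat1 (33.3 ± 27.6), Shmt1 (18.3 ± 6.74) and Phgdh (13.7 ± 7.06) followed with overlapping ranges. Psph, Mthfd1l, Mthfd2 and Aldh1l2 were at 4.11 ± 0.894, 2.55 ± 2.76, 1.92 ± 0.988 and 0.796 ± 0.816 CPM per kilobase (SD, n = 10 each).

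**Figure D4:**
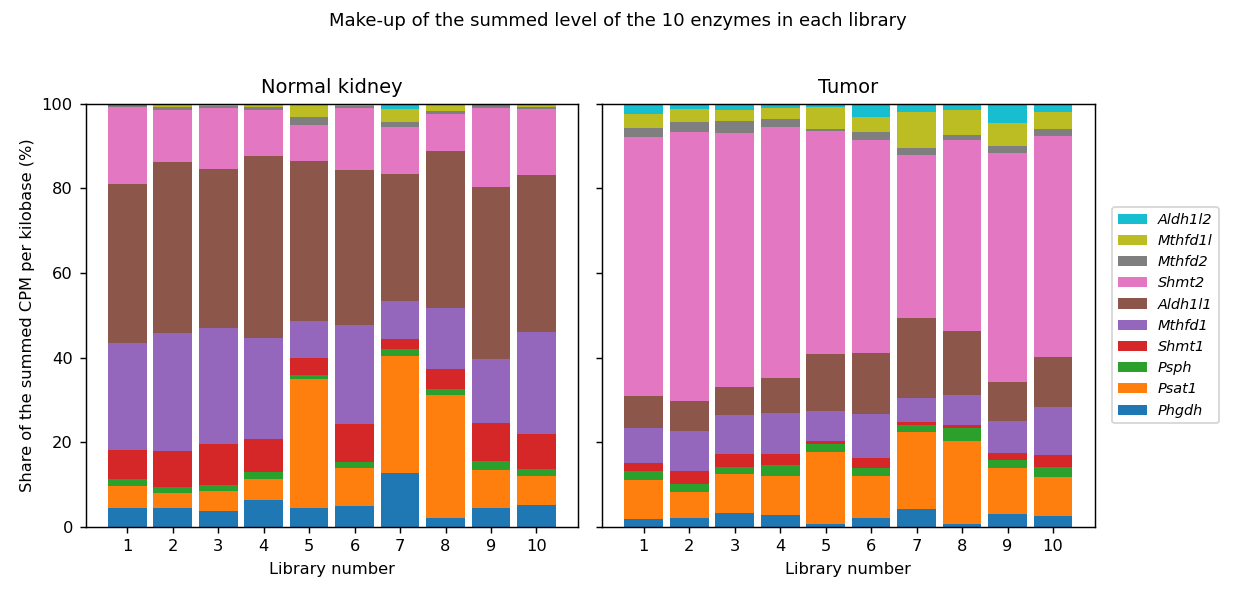
Share of each enzyme in the summed CPM per kilobase of the 10 enzymes, one stacked bar per library, normal kidneys on the left and tumors on the right. Shmt2 takes 53.7% on average in tumors and 13.3% in normal kidneys, Aldh1l1 11.2% and 37.8%, and Psat1 widens in libraries 5, 7 and 8 of both groups.

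Libraries numbered 5, 7 and 8 stood apart within both groups in Psat1, Mthfd1l and Shmt1. In Phgdh, Psph, Shmt2, Aldh1l1 and Aldh1l2 they were neither the 3 highest nor the 3 lowest of either group. The share of all genes that set them apart is not given here. Among normal kidneys these 3 held the highest levels of Psat1 and Mthfd1l and the lowest of Shmt1 and Mthfd1. Among tumors the same 3 numbers held the highest Psat1 (234, 149 and 235 CPM for numbers 5, 7 and 8, against 78.1 to 123 CPM) and Mthfd1l (74.5, 70.9 and 74.0 CPM, against 30.8 to 58.9 CPM), and the lowest Shmt1 (9.52, 5.59 and 8.91 CPM, against 14.3 to 35.2 CPM) and Mthfd2 (7.14, 11.5 and 10.8 CPM, against 15.1 to 28.7 CPM). Mthfd2 was thus low in tumors of these numbers, while in normal kidneys of these numbers it was at 14.2, 10.5 and 6.93 CPM, against 3.25 to 7.98 CPM in the others.

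Other genes moved with these libraries. In normal kidneys 5, 7 and 8 the summed level of the 10 proximal tubule markers was 3255, 2431 and 4152 CPM, against 10078 to 13687 CPM in the other 7. Lcn2, a gene known to be induced by tubule injury and looked up after the values of the members were seen, was at 2538, 3302 and 1765 CPM there, against 9.77 to 232 CPM. Havcr1, a second such gene, was at 163, 1347 and 128 CPM, against 3.18 to 35.7 CPM. Normal kidney 7 also held 232 CPM of summed proliferation markers, against 11.7 to 43.7 CPM in the other normal kidneys. Among tumors, Lcn2 was at 18.4, 165 and 38.1 CPM in numbers 5, 7 and 8, against 0.474 to 17.5 CPM, and Havcr1 overlapped (251, 503 and 224 CPM against 102 to 586 CPM). Proximal tubule markers in tumor 7 (1147 CPM) and tumor 8 (3483 CPM) were below those of the other tumors, and tumor 5 (5708 CPM) was within their range of 3817 to 10132 CPM. The part of these genes in the levels of the members was not tested.

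**Figure D5:**
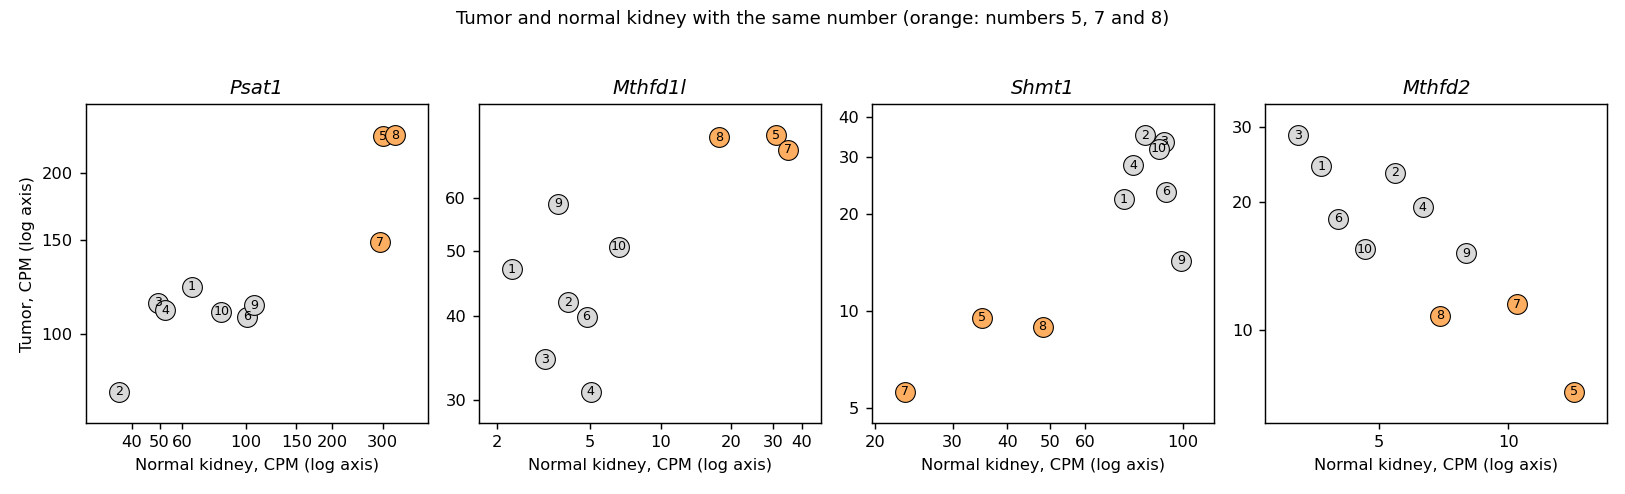
CPM of Psat1, Mthfd1l, Shmt1 and Mthfd2 in the tumor (vertical, log axis) against the normal kidney (horizontal, log axis) of the same number, one point per number, with 5, 7 and 8 in orange. The orange points lie at the upper right for Psat1 and Mthfd1l, at the lower left for Shmt1, and low in tumors for Mthfd2.

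Relations between members were computed on log2 CPM for 8 pairs in each group, 16 in all, with permutation tests and Benjamini-Hochberg adjustment over the 16. The adjustment was made separately for values over 10 and over 7 libraries. Since libraries 5, 7 and 8 were the 3 highest or the 3 lowest of both groups in Psat1, Mthfd1l and Shmt1, and among tumors also in Mthfd2, no r over all 10 libraries is given for the 7 pairs in tumors and the 5 in normal kidneys that hold one of these genes. Over all 10 libraries, r had passed for Mthfd2 and Mthfd1l in both groups, but with opposite signs, negative in tumors and positive in normal kidneys. It had also passed for Shmt1 and Aldh1l1 in normal kidneys, where it was positive. After seeing the data, the 7 pairs in tumors and the 5 in normal kidneys were computed within the other 7 libraries of each group. None passed (adjusted p at least 0.53 for r and rho). Mthfd2 and Mthfd1l, successive steps in mitochondria, had r = -0.56 in the 7 tumors (exact permutation p = 0.196) and rho = -0.57 (exact permutation p = 0.2). Shmt2 and Mthfd2 had r = 0.75 there (exact permutation p = 0.0587, adjusted p = 0.94) and rho = 0.79 (exact permutation p = 0.048, adjusted p = 0.53). Phgdh and Psat1, the opening steps of serine synthesis, had r = 0.17 in the 7 tumors (exact permutation p = 0.749), and Shmt1 and Aldh1l1 had r = -0.05 (exact permutation p = 0.904). Psat1 and Atf4, the transcription factor known to act on the serine synthesis genes, had r = 0.45 (exact permutation p = 0.331) and rho = 0.75 (exact permutation p = 0.0663). Within the 7 normal kidneys r of the 5 pairs lay between -0.10 and 0.40, with an exact permutation p of at least 0.395.

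The other 4 relations were computed over all 10 libraries, and none passed. Shmt2 and Mthfd2 had r = -0.61 in normal kidneys (permutation p = 0.0621, adjusted p = 0.142) and rho = -0.52 (permutation p = 0.134, adjusted p = 0.332). With library totals in place of TMM factors this relation did pass (r = -0.88, adjusted p = 0.0145), while within the 7 normal kidneys other than 5, 7 and 8 r was -0.02 (exact permutation p = 0.969).

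The genes most like each member over the 10 tumors, by Pearson's r of log2 CPM among 10751 protein-coding genes with a mean of at least 5 CPM in tumors, are given as a description, since the highest of so many values is high by selection and tumors 5, 7 and 8 stood apart in several members. They were Smyd5 and Bin1 for Phgdh (r = 0.94 and 0.93), Rbm7 and Rprd2 for Psat1 (0.96 each), Pou6f1 and Lrp4 for Psph (0.96 and 0.95), and Crocc and Fn3k for Shmt1 (0.99 and 0.98). For Shmt2 they were Suds3 and Slc25a3 (0.98 and 0.97), for Mthfd1 Usp24 and BC025446 (0.99 each), and for Mthfd2 Nop2 and Adam17 (0.97 each). For Mthfd1l they were Abhd6 and Trip10 (0.96 and 0.94), for Aldh1l1 Enpp4 and Abhd13 (0.94 each), and for Aldh1l2 L1cam and Hnrnph3 (0.95 each). No member was among the nearest genes of another.

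Genes that handle folate beside the members, Mthfd2l among them, moved in both directions, with 4 of 16 higher, 4 lower and 8 not passing (median log2 fold change -0.12). This count and those of the lists that follow stand beside 23.6% higher, 23.8% lower and a median of -0.02 over all genes tested, and the lists were written with earlier results known. Fpgs, which adds the glutamate tail that keeps folate in the cell, fell by 2.27 on the log2 scale (SE 0.194, adjusted p = 5.1e-09), and Ggh, which removes it, rose by 1.06 (SE 0.126, adjusted p = 6.22e-07). Mthfs, which returns 5-formyltetrahydrofolate to the pathway, rose by 0.70 (adjusted p = 0.00861). Fpgs was at 10.2 to 19.0 CPM in tumors and at 26.2 to 104 CPM in normal kidneys, without overlap. Tyms, which uses the carbon unit for thymidylate, fell by 0.79 (adjusted p = 0.00739), while 3 of 8 proliferation markers were higher and none lower. The mitochondrial serine and folate carriers were not called, with a log2 fold change of 0.04 for Sfxn1 (adjusted p = 0.866) and -0.09 for Slc25a32 (adjusted p = 0.666).

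Of 12 genes for glycine cleavage and for carbon units from choline, 9 fell, 1 rose and 2 did not pass (median -0.93). Gnmt, which spends methyl groups on glycine, fell by 3.98 on the log2 scale (SE 0.537, adjusted p = 3.27e-06), from 25.7 CPM on average in normal kidneys to 1.64 CPM in tumors. Bhmt, which moves a methyl group of betaine to homocysteine, fell by 3.22 (adjusted p = 0.00136), and Dmgdh, which oxidizes the dimethylglycine left, fell by 1.97 (adjusted p = 0.0011). Gldc, the decarboxylase of the glycine cleavage system which breaks down glycine, fell by 2.37 (SE 0.653, adjusted p = 0.00506) and spanned 2.39 to 234 CPM in tumors, against 116 to 483 CPM in normal kidneys. Chdh, which oxidizes choline, was the gene that rose (0.80, adjusted p = 0.0153).

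None of the 9 genes of the methionine cycle and transsulfuration that were tested was higher and 4 were lower (median -0.26), Mat1a being below the filter. Cbs, which joins homocysteine to serine, fell by 5.61 on the log2 scale (SE 0.634, adjusted p = 2.95e-07), from 81.2 CPM on average in normal kidneys to 1.65 CPM in tumors, without overlap. Ahcy, which hydrolyses S-adenosylhomocysteine, fell by 1.29 (adjusted p = 0.000132), and of the subunits that make S-adenosylmethionine Mat2a fell by 0.50 (adjusted p = 0.0157) and Mat2b fell by 0.32 (adjusted p = 0.0122). Mtr, the enzyme that takes a carbon unit from folate for methionine, did not pass (-0.19, adjusted p = 0.42).

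Of 13 genes of de novo purine synthesis, which takes formyl units from folate, 7 were lower, 3 higher and 3 not called (median -0.53). Prps2 and Prps1, which make the ribose donor, fell by 1.62 (adjusted p = 2e-06) and fell by 0.85 (adjusted p = 5.21e-06) on the log2 scale, and Ppat, which commits it, fell by 0.74 (adjusted p = 0.00445). Of the enzymes that use a formyl unit, Gart fell by 0.34 (adjusted p = 0.0327) and Atic rose by 0.58 (adjusted p = 0.000837). Adss, on the branch to AMP, rose by 0.73 (adjusted p = 2.01e-05).

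Of 17 genes for serine and glycine uptake and breakdown, 15 were tested, with 3 higher, 6 lower and 6 not passing (median -0.37). Slc1a4, a neutral amino acid carrier that takes serine, rose by 1.94 (SE 0.200, adjusted p = 8.48e-08), from 11.7 to 44.9 CPM on average. Hao2, a peroxisomal oxidase of hydroxy acids, fell by 7.13 on the log2 scale (adjusted p = 4.77e-07), and the neutral amino acid carrier Slc38a1 fell by 1.85 (adjusted p = 5.39e-05). The paralogs Slc6a20a and Slc6a20b, of the imino acid carrier family, moved in opposite directions, with a log2 fold change of 0.75 for Slc6a20a (adjusted p = 0.00608) and of -3.07 for Slc6a20b (adjusted p = 0.000109). Sds and Agxt were below the filter.

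Among ATF4 and 12 other genes that depend on it, 6 were higher, none lower and 7 not passing (median 0.52), Ddit3 being left out because 2 gene IDs carry the name. Slc7a11, the cystine carrier, rose by 5.02 (SE 0.863, adjusted p = 6.18e-05), the transcription factor Atf5 rose by 1.97 (adjusted p = 9.83e-06), the pseudokinase Trib3 rose by 1.91 (adjusted p = 0.00212) and Sars, which charges the tRNA of serine, rose by 1.01 (adjusted p = 6.53e-06). Atf4 itself (0.13, adjusted p = 0.668) and Asns (0.52, adjusted p = 0.238) did not pass. Atf4 spanned 67.4 to 312 CPM in normal kidneys, with the highest value in normal kidney 5, and 88.1 to 186 CPM in tumors. Slc7a11 is also a known target of Nrf2.

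Marker lists of cell types moved as well, and their part in the levels of the members was not tested. Of 10 proximal tubule markers 4 were lower and 6 not called, and all 6 markers of other tubule segments were lower, with Calb1 and Aqp2 near 0 in tumors (at most 0.112 and 0.299 CPM). Of 8 macrophage markers 5 were higher, with summed levels of 349 to 2051 CPM in tumors, compared with 138 to 645 CPM in normal kidneys. Of 6 endothelial markers 1 was higher and 1 lower (202 to 639 CPM against 325 to 424 CPM), none of 6 fibroblast markers was called (128 to 7905 CPM against 201 to 1401 CPM), and 3 of 8 proliferation markers were higher (36.5 to 252 CPM against 11.7 to 232 CPM). T cell markers summed to at most 3.92 CPM in tumors and to 9.95 CPM in normal kidneys, with Cd3e at no more than 0.943 CPM in any library, and of the 2 that were tested 1 was lower.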

How the data were processed

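Total RNA of pulverized frozen tissue was poly(A)-enriched and sequenced by a company. The authors deposited raw gene counts for 20 libraries without normalization. The build named in the submitters' processing notes is mm10, and all 10 member genes had the positions and exon lengths of GENCODE vM21. The aligner, the counting tool and the use of strand are not given in the sources used here.

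Members were found by gene name. The members and the gene lists were chosen with earlier results of these data known. Groups and replicate numbers came from the sample labels. Counts were normalized by TMM, filtered with a count minimum of 10, and tested with the quasi-likelihood test of edgeR 4.0.16 in R 4.3.3 over all 20 libraries without covariates, with Benjamini-Hochberg adjustment over 15354 genes and a threshold of 0.05. The SE was taken as the size of the log2 fold change over the root of F. Single values are CPM, or log2 CPM with a prior count of 2. Ratios within a library used a pseudocount of 0.5 counts. Permutation tests were two-sided with 100000 resamples, or exact over 7 libraries. Replicates were tumors from 10 separate mice and normal kidney of the same mice, as the series' design text states. Alternatives were DESeq2 1.42.0, limma-voom (limma 3.58.1) with and without quality weights, other scalings, no filter, the replicate block and leaving out libraries. The edgeR fits with and without the block, the limma-voom and DESeq2 fits and the resampled permutation tests were first tested on simulated data.

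Genes named are the 10 members, every list's count with at most 4 called genes of largest change plus genes that complete a step, and for each member the 2 genes with the highest r over tumors. Lcn2, Havcr1, Mthfs and Slc6a20a, the genes overlapping members, Phgdh pseudogenes and the targeted genes were named outside this rule. Under this rule 1 further gene would be named, and it is not reported here. Promoters were read from RefSeq (GRCm38.p6).

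The SE of a fold change includes the spread between libraries. The numbers of tumors and normal kidneys are not stated to mark a mouse and were not used as pairs in the main test.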

Additional observations from a re-analysis of the deposited data

Results flagged for a closer look

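The highest and lowest library of each group of 10 was compared with its neighbour for the 10 members and the 6 ratios, 32 groups in all, and 4 stood out by the gap to the nearest library, which was 46.8% to 56.7% of the range of their group and above the critical value of Dixon. Chance flags about 1 in 20 groups. Tumor 7 was low for Shmt2 (7.84 log2 CPM, others 8.63 to 9.23) and for Mthfd1 (5.63 log2 CPM, others 6.35 to 7.17), and its summed fibroblast markers were at 7905 CPM. Normal kidney 9 was low for Aldh1l2 (-1.51 log2 CPM, others 1.30 to 4.48), where it held 4 counts, and so for the log2 ratio of Aldh1l2 to Aldh1l1 (-10.8, others -7.51 to -3.93). Without tumor 7 and normal kidney 9 together, 5 members were called higher and 4 lower.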

How the results depend on the processing

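The 9 called members kept their direction and their call under all alternatives, and each of the 20 fits that left out 1 library called 5 members higher and 4 lower. Psat1, not called in the main test, turned to a positive log2 fold change with limma-voom (0.33), with limma-voom and quality weights (0.85, called), with the replicate block (0.31) and without normal kidneys 5, 7 and 8 (0.97, called, chosen after seeing the data), and it lay between -0.17 and 0.19 when single libraries were left out. The 2 fits that called it counted 6 members higher. The log2 fold change of Mthfd1l went from 2.20 to 2.79 with the replicate block, 3.25 with limma-voom and quality weights, and 3.63 without those 3 kidneys, and that of Mthfd2 from 1.37 to 2.03 with quality weights. Library totals and upper quartile scaling moved the median of all genes tested to -0.14, against -0.02 with TMM factors. With library totals, the relation of Shmt2 and Mthfd2 in normal kidneys passed (r = -0.88, adjusted p = 0.0145), and that of Phgdh and Shmt2 in tumors changed sign (from r = -0.05 to 0.025). The cause was not tested. All 6 ratios kept their call with a pseudocount of 2, under pairing and without each library.

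Deviations of same-numbered libraries correlated at 0.19 to 0.38, except for number 9 (-0.14), and 8 of 10 tumors correlated best with their own number. Whether numbers mark mice was not tested. All 10 same-numbered libraries matched in Xist above or below 50 CPM. How many lay on each side is not given here, so this match cannot show that numbers mark mice. With the replicate block, 3979 genes were higher and 3886 lower, against 3631 and 3661, and 5 members higher and 4 lower. The lowest count of a member was 4, for Aldh1l2 in normal kidney 9, where counting error is largest, although that library held 21297452 counts in all.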
